A study of Homo sapiens with 3 samples.

Results

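The genes described here are 35 genes of the NF-kB pathway and of the inflammatory response it drives, and they were selected by gene name from the probes of 3 arrays. All 35 were among the 43317 gene names on the array. Of these, 29 were measured well above background on at least 1 array, out of 22620 genes measured in all. The cells were HCT116, an epithelial line from a human colorectal carcinoma. One culture with siRNA against SMARCA4 was SMARCA4-KD1 (KD1 below) and the other SMARCA4-KD2 (KD2), and NC cells received a scrambled negative control. Each group had 1 Agilent array and no replicate, so the spread between cultures of a group is unknown. The sample titles name SMARCA4, whereas the treatment field of the same records names PRMT1, and the knockdown number was taken from that field. The labels list 2 siRNAs against SMARCA4 without tying either of them to an array. Both knockdown arrays were on slide 1 and the NC array was on slide 2, and the recorded scan dates differed in the same way. Slide, scan and group therefore cannot be told apart.

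NF-kB is a family of dimeric transcription factors made from the products of NFKB1, NFKB2, RELA, RELB and REL. In resting cells, IκB proteins keep the dimers in the cytoplasm. Signals from tumour necrosis factor, interleukin-1 and Toll-like receptors lead to degradation of the IκB proteins, and the released dimers enter the nucleus and bind short DNA sites of the NF-kB consensus. Their targets include chemokines, cytokines, survival genes and the inhibitors of the pathway itself. In the colonic epithelium the pathway is known for its role in inflammation and cell survival. SMARCA4 is an ATPase of the SWI/SNF complex, which moves nucleosomes. The arrays address how transcript levels in HCT116 cells differ when SMARCA4 is depleted.

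The SMARCA4 signal was 14026 in NC, 3960 in KD1 and 4129 in KD2. The targeted transcript was thus lower on both knockdown arrays, with log2 fold changes of -1.91 and -1.80. PRMT1, named in the treatment field, was not lower, with log2 fold changes of 0.27 and 0.37. Here and throughout, a signal is the background-subtracted intensity of a probe in arbitrary units, and a log2 fold change is the difference from NC after the 75th percentile of each array had been subtracted from log2 of the signal. Signals of different probes are not comparable. Between 45.7% and 47.3% of the 58201 probes were well above background on an array. The epithelial markers KRT8, KRT18, KRT19, EPCAM and CDH1 were well above background on all arrays, with CDH1 signals of 3125 to 3573, and VIL1 was not above background. The leukocyte markers PTPRC and CD14 passed, with signals of 37.0 to 54.4, and CD3E and MS4A1 were not above background. Of 7 stromal and endothelial markers, COL1A1, VWF and CDH5 passed, and by their brightest probes VWF and CDH5 were more than 1.5-fold higher in KD2. A second VWF probe went the other way, with signals of 40.9 in NC, 23.1 in KD1 and 14.8 in KD2, the last not well above background. By the brightest probe, none of these markers was more than 1.5-fold apart from NC in both knockdowns, and the part of other cells in the results below was not tested.

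The differences of NF-kB pathway genes ran in both directions. The median size of the mean log2 fold change was 0.40 over the 25 of them well above background on every array and 0.28 over all such genes. At the 1.5-fold threshold of the study's methods, IL18 and CSF2 were lower on both knockdown arrays. NFKBIB, by the brighter of its probes, TRAF1 and SOD2 were higher in both. CSF2 was well above background in NC alone and TRAF1 on the knockdown arrays alone. Each of them thus passed the filter only through the group where it is high. Among all measured genes 8.03% were lower in both and 6.36% were higher in both, and 2 and 3 of 29 genes are near these shares. In KD1, 2 of the 29 lay at least 1.5-fold below NC and 6 at least 1.5-fold above it, beside 12.2% and 11.2% of all genes. In KD2 these counts were 3 and 4, beside 9.77% and 10.1% of all genes. Without regard to a threshold, 16 of the 29 lay above NC in both knockdowns and 11 lay below it in both, and over all genes these numbers were 9308 and 8879 of 22620. The median of the mean log2 fold change was 0.24 over the 29 genes and 0.03 over all genes. Both comparisons share the NC array, so that an error on that array enters both in the same direction. RNA was taken from whole cultures, so fewer expressing cells and less RNA per cell cannot be told apart.

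How far a value can be trusted was judged from 2 measures of error. The extraction software assigns each signal an error. For the 25 genes well above background on all arrays this gave an error of a log2 fold change between 0.19 and 0.22. This assigned error was 0.19 both for RELB with 1 spot and for NFKBIA with 10 spots, and it measures no spread between arrays. The other measure was the difference between both knockdown arrays. Over 19497 genes well above background on all arrays, this difference had an SD of 0.25 and a median size of 0.12, and 95% of genes differed by less than 0.48. The same median size, 0.12, was found for the 25 NF-kB pathway genes, whose largest difference was 0.44, in IL32. Of these 25, RELB, NFKBIB, SOD2 and CXCL1 had a mean log2 fold change above NC by more than that 95% limit, and TNFAIP3, IL18 and IL23A lay below NC by more than it. For the others of the 25 the difference from NC was not larger than this limit. The share of all genes past the same limit was not determined. The genes named here are therefore not set apart from genes outside the pathway. The spread holds the difference between siRNAs but not the spread of NC cultures, which is unknown.

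**Figure D1:**
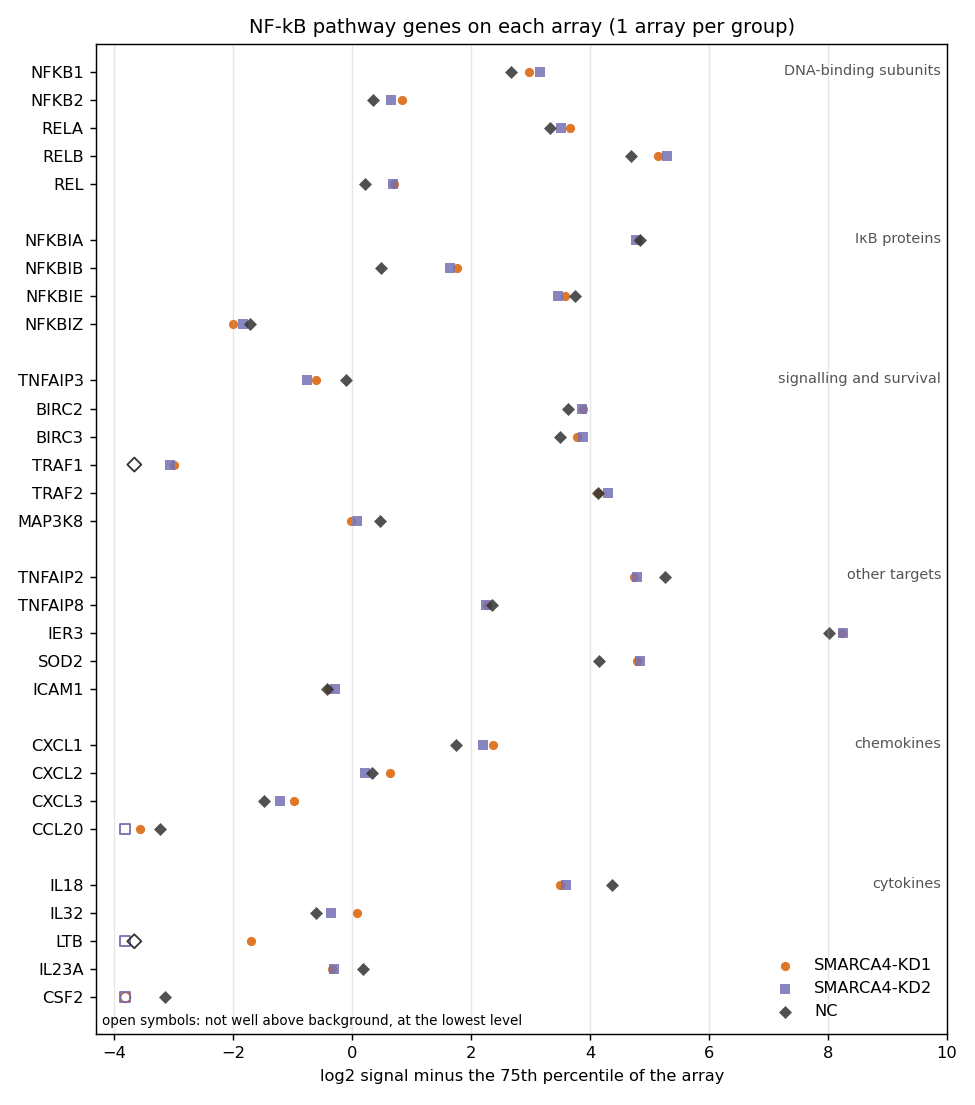
Level of each measured NF-kB pathway gene on each array, as log2 signal minus the 75th percentile of the array on the horizontal axis, with 1 point per array and genes grouped by role. Open symbols are values not well above background, placed at the lowest level well above background on that array. Levels can be compared between arrays within a gene but not between genes. LTB has KD1 alone well above background and CSF2 has NC alone.

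All 5 DNA-binding subunits lay above NC in both knockdowns, with a median log2 fold change of 0.40, beside 9308 of 22620 genes in all. RELB alone passed 1.5-fold, in KD2. It alone of the 5 had a mean past the 95% limit of 0.48 for the spread between the knockdown arrays. The NFKB1 gene encodes p105, the precursor of the p50 subunit. Its signal was 1419 in NC, 1853 in KD1 and 2048 in KD2. Both knockdown arrays were above NC, with log2 fold changes of 0.30 and 0.50. NFKB2 encodes p100, the precursor of p52, which pairs with RELB in the noncanonical pathway. The NFKB2 signal was 285 in NC, 422 in KD1 and 361 in KD2, and the log2 fold changes were 0.48 and 0.31.

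RELA encodes p65, the subunit that carries the transactivation domain of the canonical dimer. Its signal was 2244 in NC, 3008 in KD1 and 2614 in KD2. The log2 fold changes were 0.34 and 0.19, the lowest mean of the 5 subunits. A second RELA probe gave log2 fold changes of 0.29 and 0.24, in the same direction. RELB gave signals of 5753 in NC, 8395 in KD1 and 8940 in KD2. These are log2 fold changes of 0.46 and 0.60, the highest mean of the 5 subunits. REL encodes c-Rel, a subunit best known from lymphocytes. Its signal was 260 in NC, 386 in KD1 and 368 in KD2, with log2 fold changes of 0.48 and 0.47. For REL both knockdown arrays were above NC by nearly the same amount.

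Among the inhibitors, NFKBIB lay above NC on both knockdown arrays, and NFKBIA, NFKBIE and NFKBIZ lay slightly below it. NFKBIB encodes IκBβ, which binds dimers in the cytoplasm. The signal of its brighter probe was 314 in NC, 807 in KD1 and 718 in KD2. This was the largest difference among the NF-kB pathway genes above background on all arrays, 2.43-fold and 2.24-fold higher. Its position in hg19 is chromosome 19 from 39397888 to 39397947 on the plus strand. A second probe for NFKBIB, from 39398611 to 39398670 and assigned in the array files to a non-coding transcript of the gene, gave signals of 371 in NC, 462 in KD1 and 404 in KD2. There the log2 fold changes were 0.23 and 0.09, in place of 1.28 and 1.16. The difference of NFKBIB thus depended on the probe, and its mean log2 fold change over both probes was 0.69. Which probe counts as the brighter was set by the mean over all arrays. In NC the first probe was dimmer than the second, so its choice rests on its knockdown signals. Exon boundaries of the build of the array files were not used here.

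The sequence before the annotated starts of NFKBIB is shown because the brighter probe of this gene had the largest mean difference among the 25 genes well above background on every array, and because one of its starts has a match to the NF-kB consensus. The table of RefSeq gives 2 starts, and the window of the downstream start, chr19:38899719-38899968 of GRCh38.p14 on the plus strand, had matches on both strands from 28 bases before the start. The 250 bases before this start are printed 5′ to 3′ in lower case, and capitals mark the bases covered by matches.
NFKBIB: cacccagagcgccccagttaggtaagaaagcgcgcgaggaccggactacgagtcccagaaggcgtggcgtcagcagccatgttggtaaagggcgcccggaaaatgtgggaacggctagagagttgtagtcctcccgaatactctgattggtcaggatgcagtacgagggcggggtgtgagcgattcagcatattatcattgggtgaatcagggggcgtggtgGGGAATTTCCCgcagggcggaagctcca

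NFKBIA encodes IκBα, which NF-kB itself induces and which is therefore often used as a readout of pathway activity. Its probe was spotted 10 times per array. The spots gave signals from 6044 to 6699 with a median of 6495 in NC, from 6466 to 6837 with a median of 6561 in KD1, and from 6125 to 6397 with a median of 6245 in KD2. On the log2 scale relative to the 75th percentile, the mean was 4.85 ± 0.047 in NC, 4.80 ± 0.025 in KD1 and 4.77 ± 0.021 in KD2 (SD over spots of 1 array). After this subtraction the ranges of the spots overlapped between all arrays, whereas the signals before it did not overlap between KD1 and KD2. NFKBIA had log2 fold changes of -0.04 and -0.07. Repeated spots measure the same RNA and give no spread between cultures.

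NFKBIE encodes IκBε, another cytoplasmic inhibitor. Its signal was 2999 in NC, 2827 in KD1 and 2512 in KD2. NFKBIZ encodes IκBζ, a nuclear protein that acts with p50 at a subset of inflammatory genes. Its signal was 67.9 in NC, 59.2 in KD1 and 64.2 in KD2. The log2 fold changes were -0.17 and -0.29 for NFKBIE and -0.28 and -0.11 for NFKBIZ, within the spread between the knockdown arrays.

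**Figure D2:**
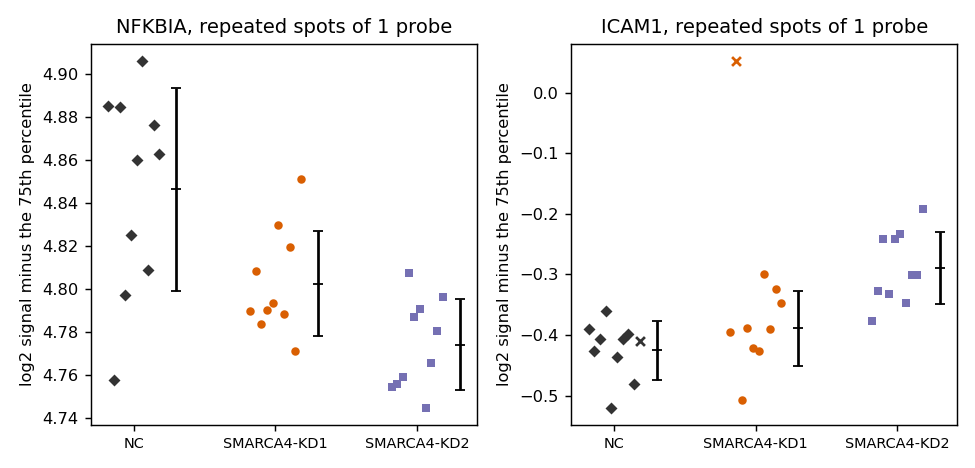
Repeated spots of the NFKBIA and ICAM1 probes, as log2 signal minus the 75th percentile of the array on the vertical axis, with 1 point per spot and the mean ± SD of the spots beside them. Crosses are spots flagged as outliers, which were left out. For NFKBIA the spot means differ by less than 0.1 between arrays, and for ICAM1 the KD2 spots are the highest on average.

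The adaptors and survival genes of the pathway were mixed. TNFAIP3 encodes A20, a ubiquitin-editing enzyme that switches the pathway off. Its signal was 207 in NC, 156 in KD1 and 135 in KD2. Both knockdown arrays lay below NC, with log2 fold changes of -0.50 and -0.65, and KD2 alone passed 1.5-fold. BIRC2 and BIRC3 encode cIAP1 and cIAP2, ubiquitin ligases that act at the tumour necrosis factor receptor. The BIRC2 signal was 2766 in NC, 3506 in KD1 and 3313 in KD2. The BIRC3 signal was 2522 in NC, 3245 in KD1 and 3376 in KD2. Both genes lay slightly above NC in both knockdowns, with log2 fold changes between 0.23 and 0.39.

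TRAF1, an adaptor of receptor complexes and itself an NF-kB target, was well above background on the knockdown arrays only. Its signal was 13.5 in NC, 29.6 in KD1 and 27.4 in KD2. Measured from the lowest level well above background in NC, TRAF1 was at least 1.58-fold higher in KD1 and at least 1.52-fold higher in KD2. Both values are just past the threshold, and with quantile normalization, normexp background correction or the percentile over bright probes TRAF1 no longer passed it. Where probes had to be above background on all arrays, TRAF1 was left out. TRAF2 encodes the adaptor that links the receptor to the cIAP proteins. The signal of its brighter probe was 3920 in NC, 4158 in KD1 and 4493 in KD2, with log2 fold changes of 0.00 and 0.16. A dim second probe gave signals of 35.6, 39.9 and 28.9 in the same order, with log2 fold changes of 0.08 and -0.33. The TRAF2 probes therefore differed in direction in KD2.

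MAP3K8 encodes the kinase TPL2, which is held inactive by p105. Its brighter probe gave a signal of 309 in NC, 234 in KD1 and 241 in KD2. Both knockdown arrays lay below NC, with log2 fold changes of -0.48 and -0.39. The other MAP3K8 probe gave 110 in NC, 54.0 in KD1 and 76.9 in KD2. Its log2 fold changes of -1.10 and -0.54 were in the same direction and larger.

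**Figure D3:**
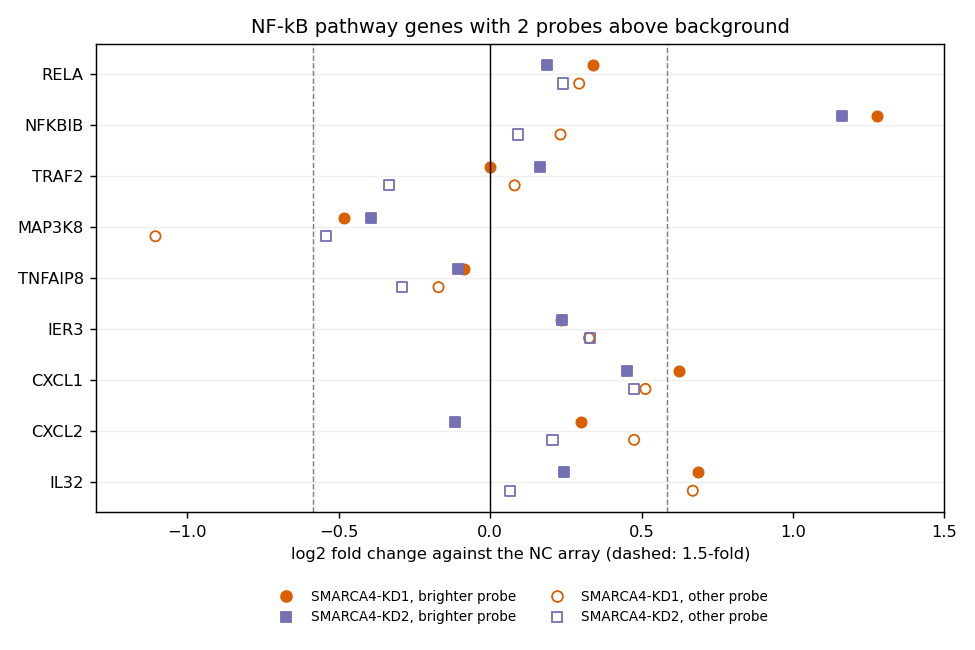
Log2 fold change against NC of both probes of the 9 genes with 2 probes above background, on the horizontal axis, with filled symbols for the brighter probe and open symbols for the other. The dashed lines are 1.5-fold. The 2 NFKBIB probes stand farthest apart, with means of 1.22 and 0.16.

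Of the other targets, SOD2 lay above NC by a similar amount in both knockdowns and TNFAIP2 lay below it. SOD2 encodes the mitochondrial superoxide dismutase, a survival factor induced by NF-kB. Its signal was 3949 in NC, 6546 in KD1 and 6550 in KD2. SOD2 was 1.56-fold higher in KD1 and 1.62-fold higher in KD2. With quantile normalization or normexp background correction at least 1 of these values no longer passed 1.5-fold. TNFAIP2, a gene named for its induction by tumour necrosis factor, had a signal of 8508 in NC, 6333 in KD1 and 6346 in KD2. Its log2 fold changes of -0.51 and -0.46 were alike but did not pass the threshold.

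The remaining targets of this kind lay near NC. TNFAIP8, a regulator of apoptosis, had a signal of 1146 in NC, 1144 in KD1 and 1090 in KD2, with log2 fold changes of -0.09 and -0.10. Its second probe gave -0.17 and -0.29. IER3, an immediate early gene, had a signal of 57513 in NC, 71690 in KD1 and 69392 in KD2. The log2 fold changes of IER3 were 0.23 and 0.24, and its second probe gave 0.33 in both knockdowns. ICAM1 encodes an adhesion molecule for leukocytes, and its probe was also spotted 10 times. Its level relative to the 75th percentile was -0.43 ± 0.049 over 9 spots in NC, -0.39 ± 0.062 over 9 spots in KD1 and -0.29 ± 0.060 over 10 spots in KD2 (SD over spots of 1 array). The log2 fold changes of ICAM1 were 0.04 and 0.14.

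The chemokines CXCL1, CXCL2 and CXCL3 attract neutrophils, and their genes lie near each other on chromosome 4. Their promoters are shown because all 3 hold the same match to the NF-kB consensus at nearly the same distance from the start. The word GGGAATTTCC began 79 bases before the start of CXCL1, 78 bases before that of CXCL2 and 79 bases before that of CXCL3, with an overlapping match on the other strand. The windows are chr4:73869143-73869392 on the plus strand for CXCL1, chr4:74099196-74099445 on the minus strand for CXCL2 and chr4:74038690-74038939 on the minus strand for CXCL3, from RefSeq on GRCh38.p14. Each line is the 250 bases before the start, 5′ to 3′ on the strand of the gene, with matches in capitals.
CXCL1: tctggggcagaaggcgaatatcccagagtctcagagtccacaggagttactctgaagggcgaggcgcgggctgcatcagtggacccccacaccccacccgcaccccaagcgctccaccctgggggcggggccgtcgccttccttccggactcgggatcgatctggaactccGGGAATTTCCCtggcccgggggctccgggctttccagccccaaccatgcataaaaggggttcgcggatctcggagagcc
CXCL2: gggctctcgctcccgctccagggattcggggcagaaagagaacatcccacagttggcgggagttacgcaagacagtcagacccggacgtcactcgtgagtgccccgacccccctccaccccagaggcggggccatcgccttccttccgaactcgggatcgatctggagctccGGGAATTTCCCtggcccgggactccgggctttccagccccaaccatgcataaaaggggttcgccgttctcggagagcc
CXCL3: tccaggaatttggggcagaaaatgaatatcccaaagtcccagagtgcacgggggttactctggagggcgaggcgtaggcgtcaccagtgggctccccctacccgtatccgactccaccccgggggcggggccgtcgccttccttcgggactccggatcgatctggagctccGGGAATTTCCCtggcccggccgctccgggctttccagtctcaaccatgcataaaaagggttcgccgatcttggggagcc

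On the arrays, these neighbours had different values, and CXCL1 passed 1.5-fold in KD1 alone. The CXCL1 signal was 748 in NC, 1223 in KD1 and 1047 in KD2. Both knockdown arrays were above NC, with log2 fold changes of 0.62 and 0.45, and a second CXCL1 probe gave 0.51 and 0.48. The CXCL2 signal was 282 in NC, 368 in KD1 and 266 in KD2. Here KD1 lay above NC and KD2 slightly below it, with log2 fold changes of 0.30 and -0.12. The second CXCL2 probe gave signals of 103, 152 and 122 in the same order and log2 fold changes of 0.47 and 0.21, above NC in both. The CXCL3 signal was 80.1 in NC, 120 in KD1 and 98.4 in KD2, with log2 fold changes of 0.50 and 0.27.

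CCL20 attracts lymphocytes and dendritic cells to epithelia. Its signal was 23.8 in NC, 19.9 in KD1 and 14.5 in KD2, where it was not well above background. The log2 fold changes were -0.34 and, as a limit, -0.58. CXCL10 and CXCL11, chemokines known as interferon-induced genes, were not well above background on any array. Their signals lay between 3.28 and 4.21.

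Of the 9 cytokines, 5 were measured, and IL18 had the largest difference below NC of those above background on all arrays. IL18 encodes a cytokine of the interleukin-1 family that epithelial cells make as a precursor. Its signal was 4631 in NC, 2670 in KD1 and 2772 in KD2. IL18 was 1.84-fold lower in KD1 and 1.71-fold lower in KD2. It stayed past 1.5-fold in both knockdowns under every other normalization and filter tried. Its probe is on the minus strand of chromosome 11 in hg19, from 112020811 to 112020870.

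IL23A encodes the p19 subunit of interleukin-23. Its signal was 253 in NC, 188 in KD1 and 184 in KD2. Both knockdown arrays lay below NC, with log2 fold changes of -0.51 and -0.49, short of 1.5-fold. IL32 encodes a proinflammatory cytokine without a mouse counterpart. Its signal was 147 in NC, 250 in KD1 and 178 in KD2. The log2 fold changes of 0.68 and 0.24 differed more between the knockdowns than those of the other NF-kB pathway genes above background on all arrays, and the second probe gave 0.67 and 0.07.

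CSF2 and LTB were each well above background on 1 array only. CSF2 encodes the growth factor GM-CSF. Its signal was 25.3 in NC, 3.40 in KD1 and 4.35 in KD2. CSF2 was thus at least 1.59-fold lower in each knockdown, a bound from a dim probe that rests on 1 spot of the NC array. With normexp background correction CSF2 did not pass 1.5-fold, and where probes had to be above background on all arrays it was left out. LTB encodes lymphotoxin β, a membrane-bound ligand of the noncanonical pathway. Its signal was 7.29 in NC, 73.1 in KD1 and 3.61 in KD2. LTB was at least 3.90-fold higher in KD1 than in NC, and KD2 and NC were both not well above background. The classical inflammatory cytokines TNF, IL6, IL1A and IL1B were not well above background on any array. Their signals lay between 3.31 and 7.47, except for IL1A in KD2 with 15.5.

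**Figure D4:**
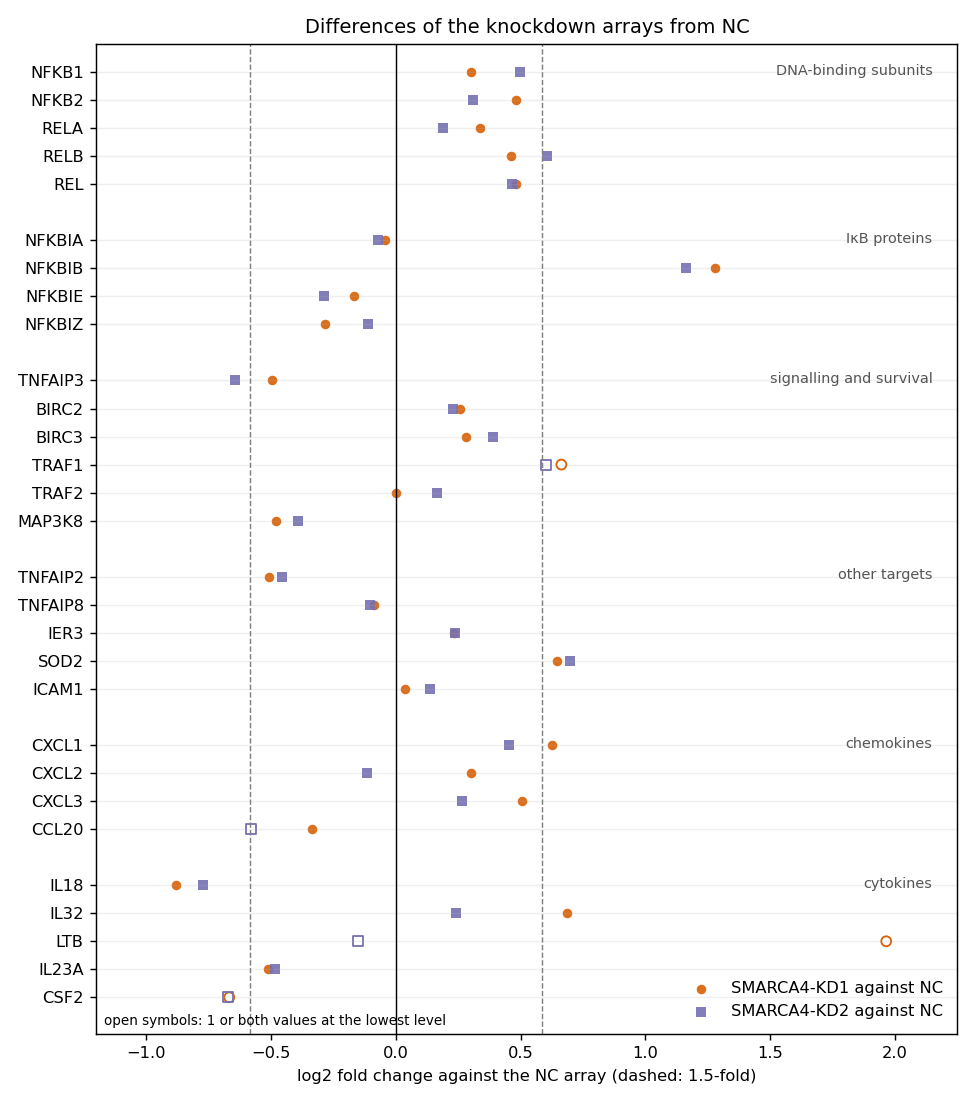
Log2 fold change of each knockdown array against the NC array for the 29 measured NF-kB pathway genes, grouped by role. The dashed lines are 1.5-fold, and open symbols have 1 or both values at the lowest level above background. All 5 DNA-binding subunits lie to the right of 0 with both knockdowns, as did 9308 of all 22620 genes. IL18, SOD2 and NFKBIB, the last by its brighter probe, lie beyond the dashed lines with both knockdowns. TRAF1 and CSF2, with open symbols, do so too.

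With limma, both knockdowns together were compared with NC across all genes. The fit treats both siRNAs as 1 group, takes NC to vary as the knockdown arrays do, and leaves 1 residual degree of freedom. At a Benjamini-Hochberg adjusted p of 0.05, limma called 0 of 22620 genes, and the smallest adjusted p was 0.0939, reached by NFKBIB, SOD2 and IL18. At an unadjusted p of 0.05 limma called 6 of the 29 genes as lower and 9 as higher, beside 14.5% and 16.2% of all genes. The unadjusted calls included CSF2 and TRAF1. CSF2 passed the filter only through NC, and both its knockdown values stood at the lowest level, which makes them alike. TRAF1 passed only through the knockdown arrays, with NC at the lowest level. The calls depended on the filter for dim probes. Among 19504 genes whose probes were well above background on all arrays, limma called 8 of 25 NF-kB pathway genes at an adjusted p of 0.05, in either direction, beside 26.5% of all genes.

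The lower genes in that fit were IL18, TNFAIP2 and TNFAIP3, and the higher ones were NFKBIB, SOD2, RELB, CXCL1 and REL. IL18 had a mean log2 fold change of -0.83 (SE 0.11, limma adjusted p = 0.00285) and was lower on both knockdown arrays. NFKBIB had a mean log2 fold change of 1.22 (SE 0.13, limma adjusted p = 0.00163) for its brighter probe. For SOD2 these values were 0.67 (SE 0.10, limma adjusted p = 0.00447). The other 5 had limma adjusted p between 0.0122 and 0.0436. The NFKBIB probe used here counted as the brighter one only through its knockdown signals. Since the slide and the scan differed between the groups, these calls compare slides and scans as well as knockdowns.

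The 250 bases before the start were available in the RefSeq table for 31 of the 35 genes, and IER3, IL18, NFKBIE and RELB were not in it. On either strand, a match to the NF-kB consensus stood before 19 of the 31 genes, or 61.3%, beside 6.28% of 27305 genes in the table. By start, 24 of 50 windows of these genes had a match, 48.0%, beside 5.21% of all 35116 windows. Overlapping matches on both strands were counted once per window. For the motif TGANTCA, bound by AP-1, the share was 5 of 31 genes or 16.1%, beside 8.06% of all genes. Many of these genes are known as NF-kB targets, and the list was chosen for that. A match is a string of letters and was not examined for binding.

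Genes with and without a match were found on both sides of NC. Of the 16 measured genes with a match, 8 were above NC in both knockdowns and 6 below it in both, with a median log2 fold change of 0.36. Of the 9 measured genes without a match, 6 were above and 3 below, with a median of 0.09. The lowest of the genes with a match was TNFAIP3, with a mean of -0.57. The highest was NFKBIB, with 1.22 by its brighter probe, whereas its other probe gave 0.16. CCL20 and LTB, with a match, and CSF2 and TRAF1, without a match, had 1 or more values at the lowest level well above background. Within a group the values ranged more widely than the medians differed.

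The rest of the pathway was described with 3 further lists of 75 genes in all, of which 63 were measured. In both knockdowns 8 of these 63 were lower by at least 1.5-fold and 1 was higher, and the shares of all genes were again 8.03% and 6.36%. Their median log2 fold change was -0.08. Among 31 receptors, adaptors and kinases upstream of NF-kB, 28 were measured, 4 were lower in both and 1 was higher in both. The lower ones were TNFRSF11A, IL1RAP, TLR3 and TRAF5. The higher one was TRAF6, an adaptor of interleukin-1 and Toll-like receptors, with log2 fold changes of 0.67 and 0.63. With normexp or the percentile over bright probes TRAF6 did not pass 1.5-fold.

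TNFRSF11A encodes RANK, a receptor that activates both arms of the pathway. Its signal was 54.6 in NC, 20.3 in KD1 and 20.7 in KD2. TNFRSF11A was 2.84-fold and 2.70-fold lower, and with normexp background correction this dim gene did not pass 1.5-fold in both knockdowns. IL1RAP encodes the co-receptor for interleukin-1, and its brightest probe gave 476 in NC, 180 in KD1 and 221 in KD2. It was 2.80-fold and 2.20-fold lower there, and another probe above background gave log2 fold changes of -0.44 and -0.19. TLR3 encodes the receptor for double-stranded RNA. Its signal was 137 in NC, 50.3 in KD1 and 67.3 in KD2, which is 2.89-fold and 2.09-fold lower. These receptors were named because their brightest probes were at least 2-fold lower on both knockdown arrays. That each lay past the 95% limit of the spread between those arrays follows from this choice and is no further support. The other IL1RAP probe above background stayed within that limit.

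Of 14 regulators of ubiquitin signalling and NF-kB activity, all were measured. On both knockdown arrays 2 were at least 1.5-fold lower, and 0 were higher, beside 8.03% and 6.36% of all genes. The lower ones, OTULIN and CYLD, both encode enzymes that remove ubiquitin chains from the signalling complexes. The OTULIN signal was 147 in NC, 64.7 in KD1 and 73.4 in KD2, 2.40-fold and 2.04-fold lower. CYLD had log2 fold changes of -1.02 and -0.80. Of 30 further targets 21 were measured, and PLAU and IL11 were lower in both, whereas 0 were higher, beside the same shares of all genes. With so few genes, these counts do not set either list apart from all genes. PLAU, the gene of urokinase, had log2 fold changes of -1.22 and -0.82, and IL11, a cytokine gene, had -0.67 and -0.61. With normexp background correction CYLD and IL11 did not pass 1.5-fold in both knockdowns. TRAF5, TRAF6, CYLD, PLAU and IL11 were named after their values had been seen.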

How the data were processed

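Total RNA of HCT116 cells was labelled with Cy3 and hybridised to arrays of the Agilent SurePrint G3 v3 human expression design, 1 each for SMARCA4-KD1, SMARCA4-KD2 and NC. The authors deposited, per array, the spot intensity after background subtraction and detrending, and the submitters' processing notes name Agilent Feature Extraction 10.7.1.1. Values were not normalized between arrays. A series-level table of the same intensity, also deposited by the authors, equalled the scanner files within 0.1% for all 44 NF-kB pathway probes with 1 spot. Other deposited columns, such as 0 or 1 flags for spots well above background or outliers and the error of the signal, were used as given.

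Control and outlier spots were left out, repeated spots were averaged on the log2 scale, and the 75th percentile of the array was subtracted. A probe had to be well above background on 1 or more arrays (29334 probes). The brightest probe, by its mean over all arrays, stood for a gene. Dimmer values were raised to the lowest level well above background on their array unless already higher, and fold changes against them are bounds. The threshold for single knockdowns was 1.5-fold, without a test. The study's methods also name a p value, which 1 array per group cannot give for a single knockdown. Both knockdowns against NC were fitted with limma 3.58.1 (R 4.3.3) with an intensity trend. The 1.5-fold count and the limma fit alone were tested on simulated gene values, with the same spread in NC as in the knockdowns. The earlier steps were not tested in this way. Other values were computed with Python 3.11.15, numpy 2.4.6 and pandas 2.3.3, and figures were drawn with matplotlib 3.10.9.

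Gene names and hg19 positions are those of the array files, and 45 of the 46 probes of the 35 genes had an accession in the RefSeq table, all with the same symbol. The genes named are SMARCA4, PRMT1, the 35 genes and, of 3 further pathway lists, genes at least 2-fold lower or at least 2-fold higher than NC on both knockdown arrays. Fixed cell type markers are named as a check of the cells, and a few genes outside this rule are marked in the text as chosen after their values were seen. The genes and lists were chosen with earlier results of these data known. The number of arrays limits the precision.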

Additional observations from a re-analysis of the deposited data

Results flagged for a closer look

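LTB stood out because its log2 fold changes had opposite signs and 1 of them was past 1.5-fold, 1.96 for SMARCA4-KD1 and -0.15 for SMARCA4-KD2. The NC signal was 7.29, that of SMARCA4-KD1 73.1 and that of SMARCA4-KD2 3.61, each from 1 spot. SMARCA4-KD2 and NC were not well above background, so that the value of -0.15 is the difference between the lowest levels of those arrays, -3.81 and -3.66. With 1 array per group the difference between the knockdowns was not tested. CXCL2, whose brighter probe also gave opposite signs, 0.30 and -0.12, neither past 1.5-fold, had values above NC in both knockdowns with its other probe.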

How the results depend on the processing

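Under the alternative settings, 442 log2 fold changes of single NF-kB pathway genes moved by less than 0.18, and 32 moved by more. This limit is the SD of 1 array estimated from both knockdown arrays. Of those past 1.5-fold 0 changed sign. Many of the 442 could not move. A gene above background on all arrays keeps its value under other filters or without a floor, and a gene with 1 probe keeps it in the mean over probes. The total is therefore no measure of stability. With normexp 48 moved by less and 10 by more, and with the other probe of a gene 12 and 6. The number of genes lower in both knockdowns, 2, was 1 with normexp background correction or when a probe had to pass on all arrays, and 0 at 2-fold. The number higher in both, 3, was 1 with quantile normalization, normexp or 2-fold. For the further pathway lists, the 8 lower genes became 5 with normexp, 4 at 2-fold, 10 with quantile normalization and 9 with the percentile over bright probes, and the 1 higher gene became 0 with the percentile over bright probes, normexp or 2-fold. The limma call of 0 genes became 4 with quantile normalization, 7 with normexp, 8 with probes above background on all arrays, 20 without a filter, 5 without a floor, 6 with the series-level table and 15 at an unadjusted p of 0.05. Over all genes these settings called 2651, 3601, 5174, 28567, 3359, 3730 and 6954, and the cause was not tested. The mean log2 fold change of CSF2 ranged from -2.78 without a floor to -0.32 with normexp. The median of all genes was -0.15 without a filter and between -0.02 and 0.05 otherwise. SMARCA4 stayed between -1.95 and -1.77. No paired analysis was possible because each group had 1 array, and for the same reason no array could be left out. Dim probes limit TRAF1, CCL20, LTB and CSF2, whose signals were close to background.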
